A study of Sus scrofa domesticus with 36 samples.

Results

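Among the 18 pig muscle libraries of this series, the 6 with the most RNA of PLIN1 were set against the 6 with the least. PLIN1 encodes perilipin 1, the protein that coats the lipid droplet of fat cells. Both sets were selected on 1 measured value, the PLIN1 level in CPM (counts of a gene scaled to 1000000 gene counts of the library), so they are sets of libraries chosen from the data and not groups of the study. The remaining 6 muscle libraries formed a middle set, and each of the 18 pigs also gave a library of subcutaneous backfat, which makes 36 libraries in all. Pigs are named as in the sample titles (Sample_889 and so on).

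All pigs were young commercial crossbreds (Danbred 600 by Newsham NC32 in the growth protocol), untreated as far as the labels say, and each gave a piece of longissimus dorsi, a long back muscle, and of backfat. They were drawn as 9 slow growers from the lowest 10 percentiles of daily gain and 9 pigs from percentiles 60 to 70, out of 1054 pigs, and which class a single pig belongs to was not in the labels used here. The series text places sampling 3 weeks after weaning, whereas the sample labels give an age of 16 to 17 days and the stage weaning, so the age is uncertain. Whether growth class, litter or sow differs between the sets was not tested.

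Skeletal muscle holds scattered fat cells between its fibre bundles, and these make the marbling of meat. They are thought to arise from fibro-adipogenic progenitors, the PDGFRA-positive cells of the connective tissue that can turn either into fat cells or into matrix-producing fibroblasts. A mature fat cell is recognised by droplet proteins such as PLIN1 and CIDEC, by the transcription factors PPARG and CEBPA, and by enzymes that build and break down triglyceride. Muscle fibres themselves also make triglyceride and burn fatty acids, so many enzymes of fat metabolism are shared by both cell types.

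Muscle libraries held 4716541 to 6216459 gene counts. The mean was 5392532 in the highest 6 and 5149095 in the lowest 6 (exact two-sided permutation test, p = 0.340, adjusted p over 4 library measures 0.453). Reads in no annotated gene made up 17.4% to 19.9% of the libraries with the highest PLIN1 and 18.2% to 34.1% of those with the lowest (exact permutation p = 0.0368, adjusted p 0.147). Pigs Sample_572 and Sample_735 in the lowest set stand apart: there the 10 most abundant genes held 16.0% and 18.4% of gene counts, against 24.5% to 32.8% in the other 4. With those libraries left out, the mean share of reads in no gene was 18.6% against 20.4% (exact permutation p = 0.162).

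PLIN1 was rare in all muscle libraries. In the highest set it stood at 20.5 CPM in pig Sample_889 (103 deposited counts), 5.13 in pig Sample_391 (29 counts), 4.10 in pig Sample_77 (21), 3.70 in pig Sample_998 (23), 3.69 in pig Sample_186 (19.5) and 3.26 in pig Sample_911 (16.5). In the lowest set it stood at 1.62 CPM in pig Sample_231 (8.5 counts), 1.49 in pig Sample_731 (8.5), 1.35 in pig Sample_572 (6.5), 1.27 in pig Sample_735 (6), 1.13 in pig Sample_656 (6) and 0.979 in pig Sample_659 (5). The nearest libraries outside the sets were pig Sample_491 at 3.02 CPM, just below pig Sample_911, and pig Sample_114 at 1.64 CPM, just above pig Sample_231. One library is far from the rest, and the others form a continuous slope.

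Counting error is large at these depths. The 95% exact Poisson interval of pig Sample_889 runs from 16.7 to 24.9 CPM and that of pig Sample_391 from 3.44 to 7.37 CPM. The interval of pig Sample_911, the last of the highest set, was 1.88 to 5.25 CPM, and that of pig Sample_231, the first of the lowest set, reached up to 3.13 CPM. These intervals cover counting error only. PLIN1 in the backfat of the same pigs stood between 487 and 983 CPM, so muscle carried 2.19% of the backfat level in pig Sample_889 and 0.150% to 0.857% in the other 17 pigs. Because these are bulk samples, fewer fat cells and less PLIN1 RNA per fat cell cannot be told apart.

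**Figure D1:**
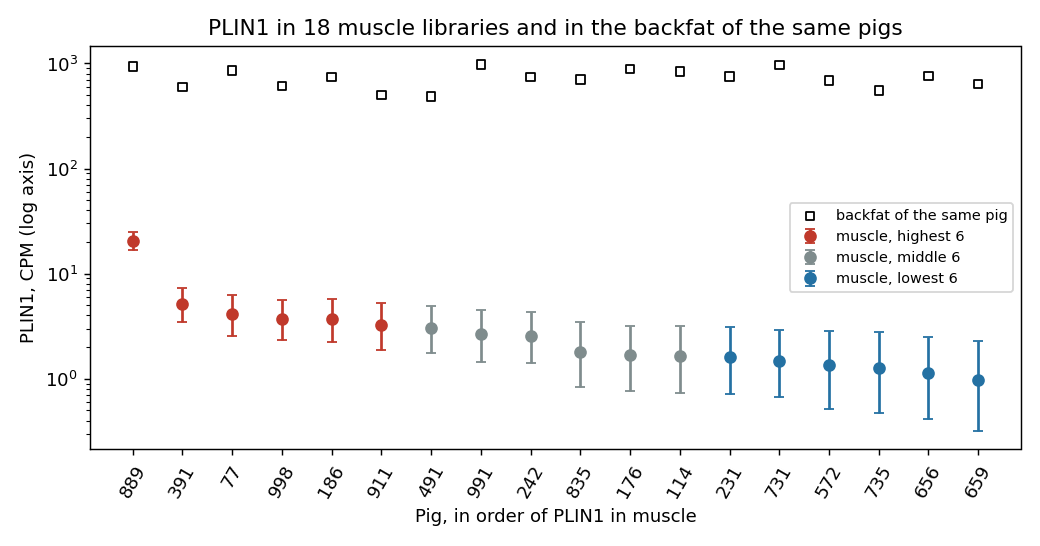
PLIN1 in CPM (log axis) for 18 pigs in order of the muscle level, with filled points and 95% exact Poisson intervals for muscle and open squares for backfat of the same pig. Pig Sample_889 at 20.5 CPM is the 1 muscle library far above the others, and the backfat squares lie between 487 and 983 CPM along the whole order.

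CIDEC, which enlarges lipid droplets by fusing them, was the second marker of the label. On the scale of trimmed-mean (TMM) normalised CPM used from here on, its level was 12.4 in pig Sample_889, 3.95 in pig Sample_391, 1.30 in pig Sample_77, 1.65 in pig Sample_998, 1.58 in pig Sample_186 and 1.89 in pig Sample_911. The lowest set had 1.97 in pig Sample_231, 0.797 in pig Sample_731, 0.745 in pig Sample_572, 0.612 in pig Sample_735, 0.828 in pig Sample_656 and 1.24 in pig Sample_659. Pigs Sample_889 and Sample_391 are again the highest, while pig Sample_231 of the lowest set lies above 4 of the highest 6. The log2 difference (highest 6 minus lowest 6) was 1.92 ± 0.53 (SE; edgeR quasi-likelihood test, adjusted p = 0.186), and 1.05 without pig Sample_889. Ranking the libraries by CIDEC in CPM kept 5 of the highest 6, with pig Sample_231 of the lowest set in place of pig Sample_77. It kept 3 of the lowest 6 (pigs Sample_731, Sample_735 and Sample_656), with pigs Sample_991, Sample_835 and Sample_114 of the middle set in place of the others.

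Across all 11962 genes tested in muscle other than PLIN1, edgeR called no gene at an adjusted p under 0.05 in either direction (0% of the genes). At an unadjusted p under 0.05, 767 genes had higher values in the set with more PLIN1 (6.41%) and 769 had lower values (6.43%). DESeq2, run on the same counts, called 51 genes higher and 6 lower, and 4 of these 57 were still called when pig Sample_889 was left out. Leaving out pig Sample_889 also took the edgeR counts at an unadjusted p to 502 higher and 426 lower, while leaving out pig Sample_911 raised the edgeR calls to 16 genes, all higher. With library totals in place of TMM factors the unadjusted counts were 406 higher and 768 lower, so the share higher was 34.6% instead of 49.9%, and the median log2 difference of all genes was -0.14 instead of -0.03. The 2 sets did not overlap for 30 genes with higher values (0.251%) and 26 with lower values (0.217%).

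Among fat cell identity genes none passed the adjusted threshold, and the ranges of both sets overlapped for each of those given below. The list has 20 genes: 8 have no symbol in the table of gene names used, 4 lay below the expression filter, and 7 besides PLIN1 were tested. Of these 7, 6 had a positive log2 difference, beside 45.2% of all genes, and 3 had an unadjusted p under 0.05 (CIDEC, PCK1 and PPARG), beside 6.41% of all genes. Without pig Sample_889, 2 were at that level (CIDEC and PCK1). DESeq2 called none of them either. The list median was 0.49, beside -0.03 over all genes, and 0.28 without pig Sample_889.

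PCK1, phosphoenolpyruvate carboxykinase, supplies the glycerol backbone of triglyceride in fat cells. It stood at 1.18 to 8.63 CPM in the highest 6 (median 1.71) and at 0.612 to 1.24 CPM in the lowest 6 (median 0.846), and 1 library of the highest set lay within the range of the lowest set. The log2 difference was 1.67 ± 0.44 (SE, edgeR adjusted p = 0.175) and 0.94 without pig Sample_889. PPARG, the master regulator of fat cell formation, stood at 1.93 to 6.83 CPM (median 3.42) against 1.20 to 3.01 CPM (median 2.11), with a log2 difference of 0.76 ± 0.30 (SE, adjusted p = 0.309) that was 0.49 without pig Sample_889. CEBPA, its partner in fat cell formation, was at 7.01 CPM in pig Sample_889 and at 1.18 to 2.10 CPM in the other 5 of the set, inside the 0.598 to 3.45 CPM of the lowest 6. Its log2 difference of 0.49 became -0.11 without pig Sample_889.

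Among the genes below the filter, TRARG1, which governs glucose transporter traffic in fat and muscle, stood at 2.70 CPM in pig Sample_889 and at 0 to 0.592 CPM in the other 17 muscle libraries. RBP4, the retinol carrier secreted by fat and liver, stood at 0.394 to 2.76 CPM in the highest 6 and at 0.153 to 0.493 CPM in the lowest 6, with 1 library of the highest set inside the range of the lowest. Neither was tested.

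The abundant genes of the list had overlapping ranges in the sets. CFD, the complement factor D that fat cells secrete, stood at a median of 100.3 CPM in the highest 6 and 108 CPM in the lowest 6, and in pig Sample_889 it was at 52.5 CPM, rank 16 of 18. PLIN4, another droplet coat protein, had medians of 147 and 179 CPM, but a log2 difference of 0.21 ± 0.27 (SE, edgeR adjusted p = 0.777). GPD1, which makes glycerol 3-phosphate, had medians of 895 and 782 CPM. In the middle 6 pigs, which are in neither set, GPD1 was lower in backfat than in muscle by a log2 difference of -3.86 (edgeR), whereas PLIN1, CIDEC and PCK1 were higher in backfat by 6.87, 5.81 and 7.36. TRARG1 and RBP4 were higher in backfat by 6.77 and 5.38, and CFD by 1.60. The tissue difference of PLIN4 was 0.32 ± 0.24 (SE, edgeR adjusted p = 0.242).

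**Figure D2:**
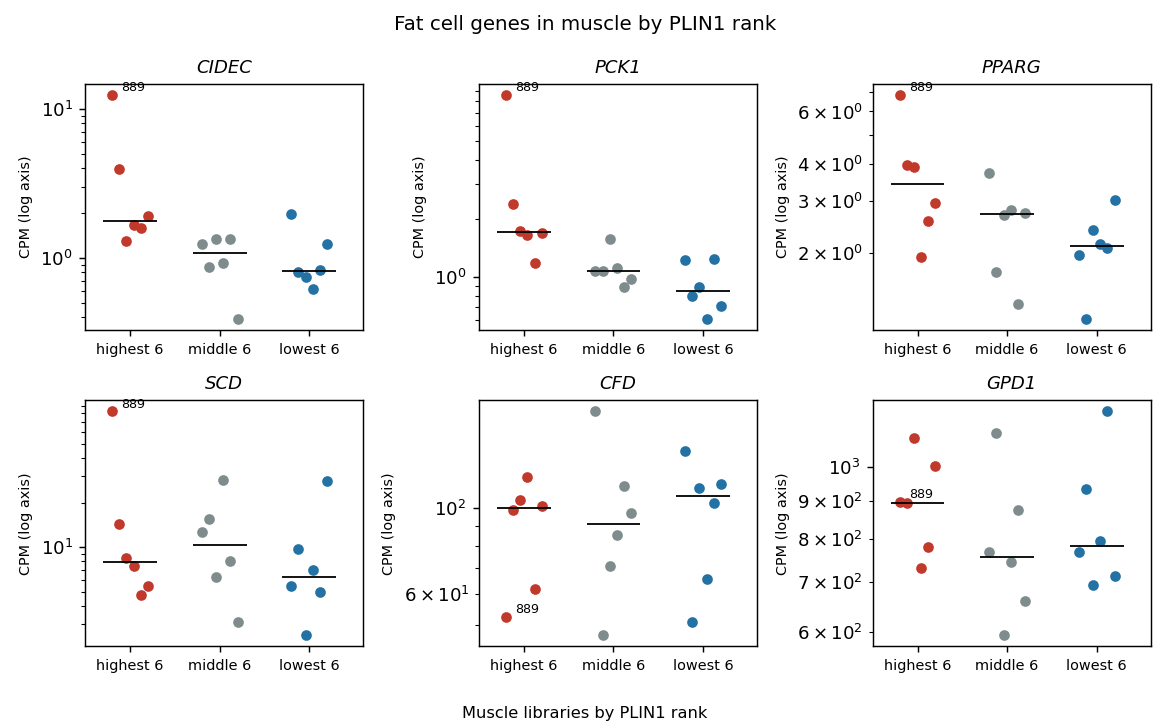
TMM-normalised CPM (log axis) of 6 fat cell genes in the muscle libraries with the highest, middle and lowest PLIN1; points are libraries and bars are medians. Pig Sample_889 is the highest library for CIDEC, PCK1, PPARG and SCD, whereas it is among the lower ones for CFD and in the middle for GPD1.

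Of 17 fatty acid and triglyceride synthesis genes tested, 14 had positive values. An unadjusted p under 0.05 was reached by 2 with a positive value (ACLY and ELOVL5) and by 1 with a negative value (LPIN1), beside 6.41% and 6.43% of all genes. Without pig Sample_889 only ELOVL5 was at that level. The list median was 0.33, and 0.19 without pig Sample_889. ELOVL5, which lengthens polyunsaturated fatty acids, stood at 3.86 to 10.8 CPM in the highest 6 and at 2.38 to 3.94 CPM in the lowest 6, with a log2 difference of 0.98 ± 0.26 (SE, edgeR adjusted p = 0.175). ACLY, which makes cytosolic acetyl-CoA, stood at 7.78 to 18.5 CPM against 5.79 to 9.69 CPM, with a log2 difference of 0.57 ± 0.20 (SE, adjusted p = 0.291) that was 0.33 without pig Sample_889.

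SCD and FASN, the desaturase and the synthase of new fatty acids, had their highest values in pig Sample_889. SCD was at 82.7 CPM in pig Sample_889 and at 4.73 to 14.2 CPM in the other 5, while the lowest 6 ranged from 2.53 to 28.0 CPM. FASN was at 67.2 CPM in pig Sample_889 and at 16.6 to 33.4 CPM in the other 5, beside 11.3 to 43.5 CPM in the lowest 6. Their log2 differences were 1.09 and 0.22, and -0.25 and -0.13 without pig Sample_889. Relative to the backfat of the same pig, SCD in muscle of pig Sample_889 was at 23.9% and FASN at 13.3%, inside the ranges of the other 17 pigs (2.39% to 25.9% and 2.80% to 43.4%).

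Lipolysis genes showed no common direction: 3 of 8 tested had positive values and the median was -0.08. LIPE, hormone-sensitive lipase, stood at 18.7 to 43.8 CPM in the highest 6. In the lowest 6 it was at 173 CPM in pig Sample_572, 136 CPM in pig Sample_735 and 15.4 to 42.6 CPM in the other 4. LPIN1, the phosphatidate phosphatase lipin 1, showed the same pattern, with 315 and 105 CPM in pigs Sample_572 and Sample_735 and 19.0 to 59.2 CPM in the other 4, against 31.3 to 59.2 CPM in the highest 6. The log2 differences of -1.18 for LIPE and -1.14 for LPIN1 became 0.27 and 0.13 without pigs Sample_572 and Sample_735. PNPLA2, the lipase that starts triglyceride breakdown, had medians of 130.3 and 118 CPM.

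The genes whose order over the 18 muscle libraries was most like that of PLIN1 included 1 lipid droplet gene, LDAH, and genes of vessel walls and matrix. By Spearman's rho in CPM, the 8 leading genes with a symbol among 10547 with a mean of at least 2 CPM were MEST (0.81), MICAL1 (0.81), PLAU (0.81), LDAH (0.80), MCAM (0.79), TNC (0.77), ACTA2 (0.75) and SERPINF1 (0.75). These values are descriptions over 18 libraries, in which both genes of a pair share library and depth, and the genes were ranked for this value. MEST is an imprinted gene linked to fat cell size, MICAL1 oxidises actin, LDAH is a lipid droplet hydrolase, MCAM marks vessel wall cells, and SERPINF1 is a secreted factor of fibroblasts and fat cells. Without pig Sample_889 the 8 values lay between 0.70 and 0.79. CIDEC and PCK1 lay below the mean of 2 CPM, and PPARG had 0.38.

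PLAU, the urokinase that cuts plasminogen, had the lowest adjusted p of all genes. It stood at 19.8 CPM in pig Sample_889, 10.3 in pig Sample_391, 24.2 in pig Sample_77, 13.5 in pig Sample_998, 11.8 in pig Sample_186 and 15.4 in pig Sample_911. The lowest set had 9.36 CPM in pig Sample_231, 5.98 in pig Sample_731, 6.26 in pig Sample_572, 3.98 in pig Sample_735, 6.21 in pig Sample_656 and 7.62 in pig Sample_659. The ranges do not overlap, as for 0.251% of all genes with higher values, and pig Sample_889 is not the highest. The log2 difference was 1.28 ± 0.21 (SE, edgeR adjusted p = 0.0872), and 1.21 without pig Sample_889. When a mean of at least 5 CPM was required, edgeR called it.

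Extracellular matrix genes were the list with the most members at an unadjusted p under 0.05. All 22 tested had positive values, 16 of them at that level, beside 6.41% of all genes, and the median log2 difference was 0.87. Without pig Sample_889, 21 were positive, 15 were at that level and the median was 0.72, and without pigs Sample_889, Sample_572 and Sample_735 the median was 0.54 with 11 at that level. None passed edgeR's adjusted threshold with all libraries, and 8 were called by DESeq2, beside 57 calls over all 11962 genes. Of the DESeq2 calls with a symbol, in this list or outside it, only TNC and PLAU were also called without pig Sample_889. The summed level of the list ran from 3241 to 8723 CPM in the highest 6 and from 1733 to 4659 CPM in the lowest 6, so the sets overlap.

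COL1A2, a chain of the main fibrous collagen, stood at 1717 CPM in pig Sample_889, 1046 in pig Sample_391, 437 in pig Sample_77, 869 in pig Sample_998, 523 in pig Sample_186 and 329 in pig Sample_911. In the lowest set it was at 222 CPM in pig Sample_231, 325 in pig Sample_731, 150 in pig Sample_572, 97.2 in pig Sample_735, 482 in pig Sample_656 and 227 in pig Sample_659. Pigs Sample_572 and Sample_735 are the lowest of all, and pig Sample_656 lies above 2 of the highest 6. The log2 difference was 1.71 ± 0.40 (SE, edgeR adjusted p = 0.160), 1.37 without pig Sample_889 and 1.03 without pigs Sample_889, Sample_572 and Sample_735. COL6A3, a chain of the collagen that surrounds fibres and fat cells, had medians of 358 and 184 CPM and a log2 difference of 0.88 ± 0.22 (SE, adjusted p = 0.160). COL3A1, the collagen of soft reticular matrix, had medians of 2595 and 1617 CPM and a difference of 0.76, and COL4A2 of the basement membrane had 344 and 268 CPM and a difference of 0.43.

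Further matrix genes spread more widely. TNC, tenascin C of tendon and of healing tissue, stood at 28.8 CPM in pig Sample_889 and at 1.30 to 7.86 CPM in the other 5, against 0.709 to 1.34 CPM in the lowest 6. Its log2 difference was 2.96 ± 0.54 (SE, edgeR adjusted p = 0.141, unadjusted p = 2.9e-05). Without pig Sample_889 it was 2.16 ± 0.34 (SE), with a lower unadjusted p of 4.03e-06 (edgeR). In that fit edgeR called 1 gene higher at an adjusted p under 0.05. FMOD, a small proteoglycan that spaces collagen fibrils, stood at 31.5 to 248 CPM against 7.35 to 66.6 CPM, with a log2 difference of 2.15 ± 0.57 (SE, adjusted p = 0.183). LOX, which cross-links collagen, had a log2 difference of 1.46 ± 0.35 (SE), FN1, fibronectin, had 1.21 ± 0.31 (SE), and the collagen-binding AEBP1 had 1.22 ± 0.25 (SE). With all libraries, the adjusted p of the 7 matrix genes given with an SE here and above lay between 0.141 and 0.183. FMOD, LOX, FN1 and AEBP1 were picked out after their values were seen.

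**Figure D3:**
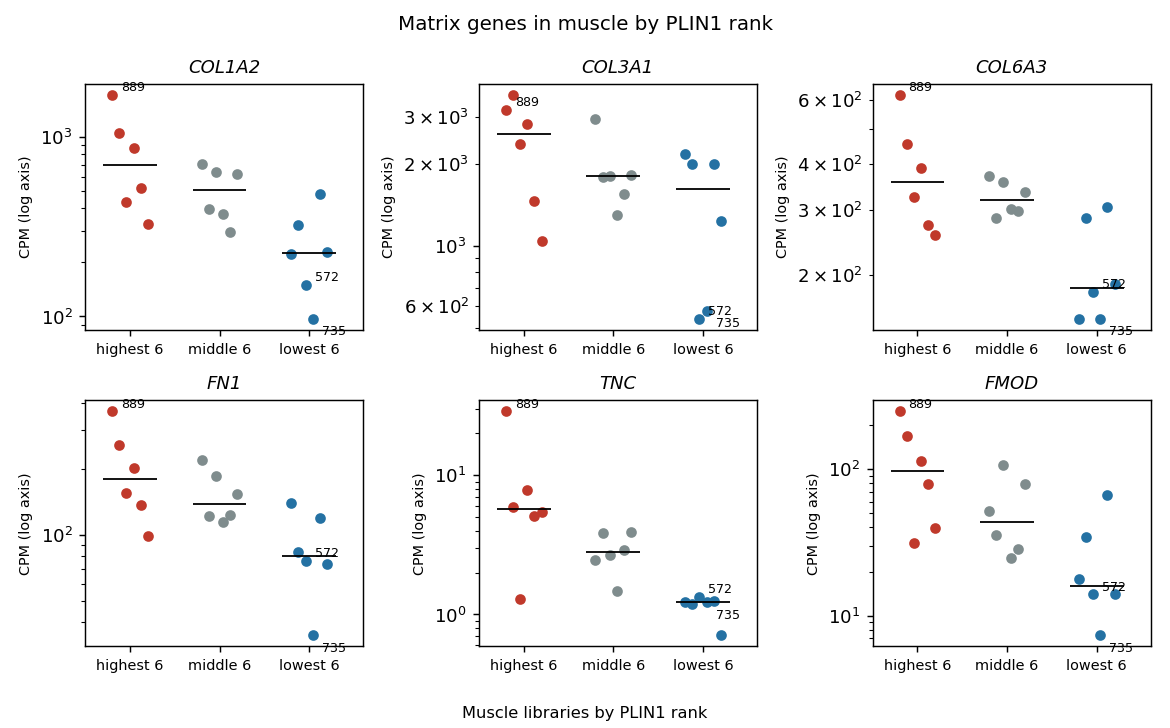
TMM-normalised CPM (log axis) of 6 matrix genes in the muscle libraries with the highest, middle and lowest PLIN1; points are libraries and bars are medians, with pigs Sample_889, Sample_572 and Sample_735 marked. The medians step down from the highest to the lowest set for all 6 genes shown, pig Sample_889 is the highest library for 5 of them, and the sets overlap for all 6.

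Fibroblast and progenitor genes had smaller differences. All 11 tested were positive, beside 45.2% of all genes, and 2 had an unadjusted p under 0.05, beside 6.41% of all genes. The median was 0.43, or 0.15 without pigs Sample_889, Sample_572 and Sample_735. PDGFRA, the receptor that defines fibro-adipogenic progenitors, stood at 7.78 to 15.4 CPM in the highest 6 and at 5.05 to 7.75 CPM in the lowest 6. The sets just missed overlap, as 0.251% of all genes had no overlap with higher values. In the middle 6 PDGFRA stood at 7.75 to 16.0 CPM, with a median of 11.2 beside 9.93 in the highest 6. Its log2 difference was 0.69 ± 0.19 (SE, edgeR adjusted p = 0.186), it was 0.68 without pig Sample_889, and pig Sample_889 ranked 6 of 18. FBN1, fibrillin 1, had a log2 difference of 0.95 ± 0.23 (SE, adjusted p = 0.160). DCN, the proteoglycan decorin, had medians of 377 and 230.6 CPM and a difference of 0.43 ± 0.26 (SE, adjusted p = 0.501), and LUM, the related lumican, had medians of 102 and 81.3 CPM.

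Markers of vessels, immune cells and dividing cells were counted in the same way, and their part in the other results was not tested. Of 8 smooth muscle and pericyte genes all were positive, 4 with an unadjusted p under 0.05, beside 6.41% of all genes. Without pigs Sample_572 and Sample_735, 2 were at that level, and 1 when pig Sample_889 was left out as well. MYH11, the smooth muscle myosin, stood at 1.68 to 8.99 CPM against 0.894 to 2.19 CPM, with a log2 difference of 1.76 ± 0.36 (SE, edgeR adjusted p = 0.141). ACTA2, smooth muscle actin, had medians of 163 and 103 CPM and a difference of 0.70, which was 0.34 without pigs Sample_572 and Sample_735. Endothelial genes had a median of 0.12, or -0.02 with library totals, with none of 12 higher and 1 lower at an unadjusted p under 0.05, and PECAM1 of the vessel lining stood at medians of 139 and 137 CPM.

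Macrophage genes were positive for 9 of 10 tested, 2 at an unadjusted p under 0.05 (6.41% of all genes), with a median of 0.40. Without pig Sample_889, 7 were positive, none was at that level and the median was 0.21. C1QA, a chain of the first complement component and the most abundant gene of the list, had medians of 39.9 and 37.2 CPM and a log2 difference of 0.07, or -0.16 without pig Sample_889. CD14, the coreceptor for bacterial lipopolysaccharide, had a difference of 0.79 that was 0.18 without pig Sample_889. MRC1, the mannose receptor of resident macrophages, stood at 23.7 CPM in pig Sample_889, at 4.34 to 23.7 CPM over the highest 6 and at 3.19 to 6.43 CPM over the lowest 6, and its log2 difference of 1.06 was 0.68 without pig Sample_889. The summed macrophage level was 64.2 to 196 CPM in the highest 6 and 40.9 to 175 CPM in the lowest 6. Lymphocyte genes had a median of 0.55, and 0.29 without pig Sample_889, with none of 6 at an unadjusted p under 0.05. In the backfat of the same pigs all 10 macrophage genes were positive between the pigs of both muscle sets, with a median of 0.53. Of them 3 had an unadjusted p under 0.05 (edgeR), beside 3.15% of all genes in backfat. All 6 lymphocyte genes were positive there, with a median of 0.73 and 0 at that level.

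Cell division genes had the largest median of the 29 lists, 1.21, with all 9 tested positive and 7 at an unadjusted p under 0.05, beside 6.41% of all genes. One of the 9 met the expression filter only with pig Sample_889 included. Without that pig the median was 0.69, with 3 of 8 at that level. Without pigs Sample_572 and Sample_735, 2 were at that level, and without all 3 pigs the median was 0.57 with 1 at that level. TOP2A, which untangles replicated DNA, stood at 9.38 to 47.1 CPM in the highest 6 and at 2.09 to 22.1 CPM in the lowest 6, with 47.1 CPM in pig Sample_889. MCM3, a part of the replication helicase, stood at 2.96 to 18.0 CPM against 1.77 to 6.78 CPM. Medians in the middle and highest 6 muscle libraries were 15.6 and 14.8 CPM for TOP2A and 5.87 and 6.80 CPM for MCM3. In the backfat of the same pigs the cell division genes had a median of 1.02 between the pigs of both muscle sets. All 9 were positive there and 6 had an unadjusted p under 0.05 (edgeR), beside 3.15% of all genes in backfat. There TOP2A had a log2 difference of 1.11 ± 0.43 and MCM3 0.99 ± 0.40 (SE, edgeR adjusted p = 0.806 for both).

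Immediate early genes, which respond to stimulation within minutes, were positive for 9 of 10, 5 at an unadjusted p under 0.05, beside 6.41% of all genes. Without pigs Sample_572 and Sample_735, 2 were at that level. Without pig Sample_889 all 10 were positive and 5 were at that level, and without all 3 pigs 4 were. The list median was 0.62, beside 0.70 without pig Sample_889 and 0.61 without all 3 pigs. EGR1 had a log2 difference of 1.18 ± 0.34 (SE, edgeR adjusted p = 0.197), with pig Sample_889 at rank 6 of 18. NR4A3 had 2.73 ± 1.04 (SE, adjusted p = 0.309), carried by 789 CPM in pig Sample_186 and 153 CPM in pig Sample_77 beside a set median of 14.2 CPM. All 9 interferon response genes tested were positive, with a median of 0.56 and none at an unadjusted p under 0.05.

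**Figure D4:**
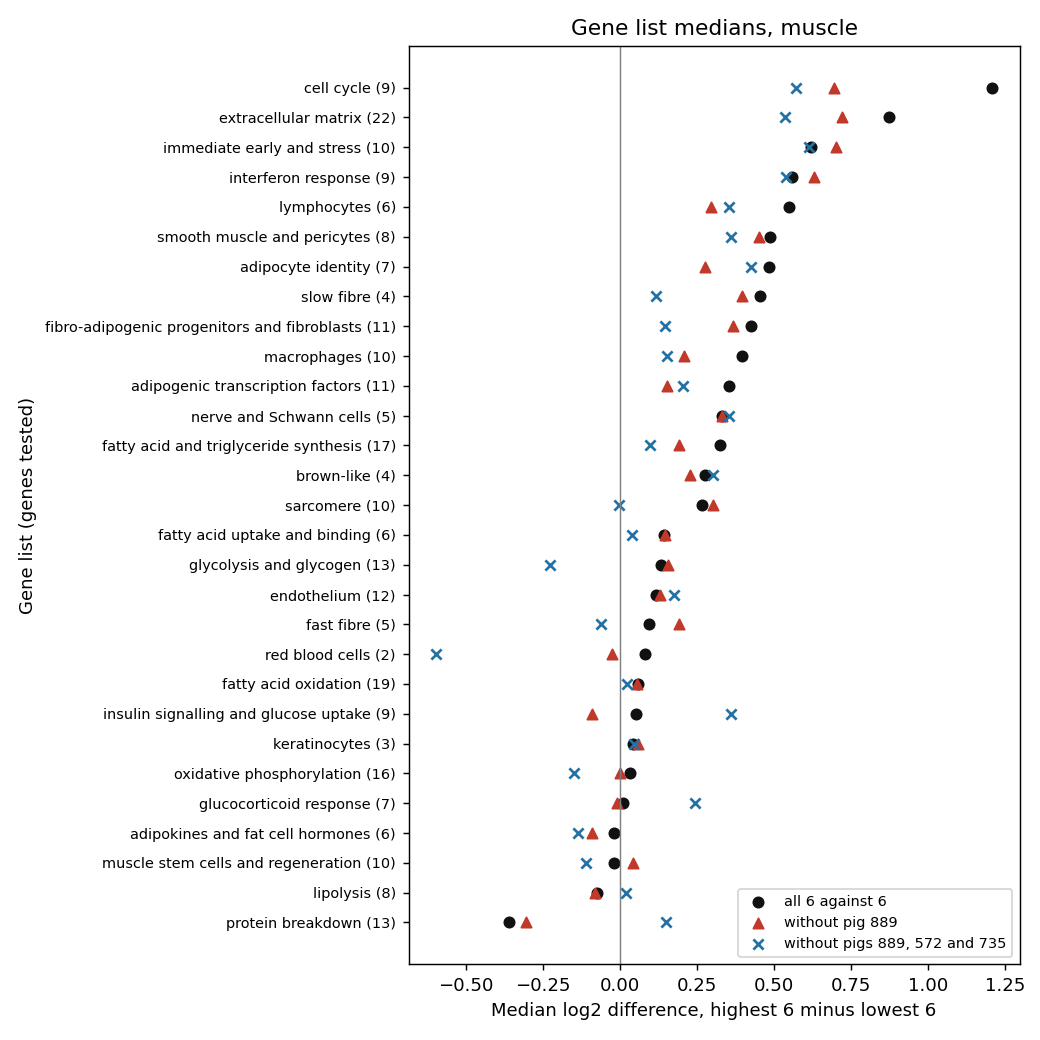
Median log2 difference (highest minus lowest 6 muscle libraries) of the 29 gene lists, with the number of genes tested in brackets, for all libraries and with named pigs left out. Cell cycle and matrix lists lie farthest to the right at 1.21 and 0.87, and protein breakdown moves from -0.36 to 0.15 when pigs Sample_889, Sample_572 and Sample_735 are left out.

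Genes of the muscle fibre showed no common direction once pigs Sample_572 and Sample_735 were left out. The sarcomere list had a median of 0.27, with none of 10 at an unadjusted p under 0.05. Without pigs Sample_572 and Sample_735 the median was 0.0031, with 1 lower at that level. ACTA1, skeletal actin, stood at a median of 97330 CPM in the highest 6 and 70588 CPM in the lowest 6, where pigs Sample_572 and Sample_735 had 15485 and 13907 CPM. Oxidative phosphorylation and fatty acid oxidation had medians of 0.03 and 0.06, or -0.01 and -0.03 with library totals. Among markers of blood and skin, HBB had medians of 30.3 and 13.9 CPM with ranges that overlap, but a log2 difference of -0.11 ± 0.78 (SE, edgeR adjusted p = 0.968). KRT10 stood at 2.62 to 4.34 against 2.84 to 5.18 CPM.

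PDK4, the kinase that turns muscle from glucose to fatty acid use, had lower values in the set with more PLIN1. It stood at 371 CPM in pig Sample_889, 503 in pig Sample_391, 391.6 in pig Sample_77, 331 in pig Sample_998, 549 in pig Sample_186 and 345 in pig Sample_911. In the lowest set it was at 1129 CPM in pig Sample_231, 1291 in pig Sample_731, 3495 in pig Sample_572, 2149 in pig Sample_735, 2039 in pig Sample_656 and 307 in pig Sample_659. Pig Sample_659 lies below all of the highest set, and the other 5 of the lowest set lie above all of it. The log2 difference was -2.06 ± 0.57 (SE, edgeR adjusted p = 0.186), -2.02 without pig Sample_889 and -1.52 without pigs Sample_572 and Sample_735. The middle 6 ranged from 128 to 1833 CPM, below and above both medians of 381 and 1665 CPM.

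Protein breakdown genes were the list with the most negative median, -0.36. Of 13 tested, 3 were positive and 10 negative, beside 45.2% of all genes positive. At an unadjusted p under 0.05, 5 were lower, beside 6.43% of all genes. FBXO32, the muscle ubiquitin ligase atrogin-1, stood at 272 and 183 CPM in pigs Sample_572 and Sample_735, at 3.94 to 14.9 CPM in the other 4 of the lowest set and at 3.58 to 22.8 CPM in the highest 6. FOXO1, the transcription factor that switches on such ligases, stood at 322 and 301 CPM in those pigs, at 26.6 to 143 CPM in the other 4 and at 37.0 to 109 CPM in the highest 6. The log2 differences were -2.97 ± 0.95 (SE, edgeR adjusted p = 0.254) for FBXO32 and -1.46 ± 0.45 (SE, adjusted p = 0.244) for FOXO1. Without pigs Sample_572 and Sample_735 they were 0.15 and -0.61, and the list median was 0.13. In that fit 0 genes of the list were lower and 1 was higher at an unadjusted p under 0.05.

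**Figure D5:**
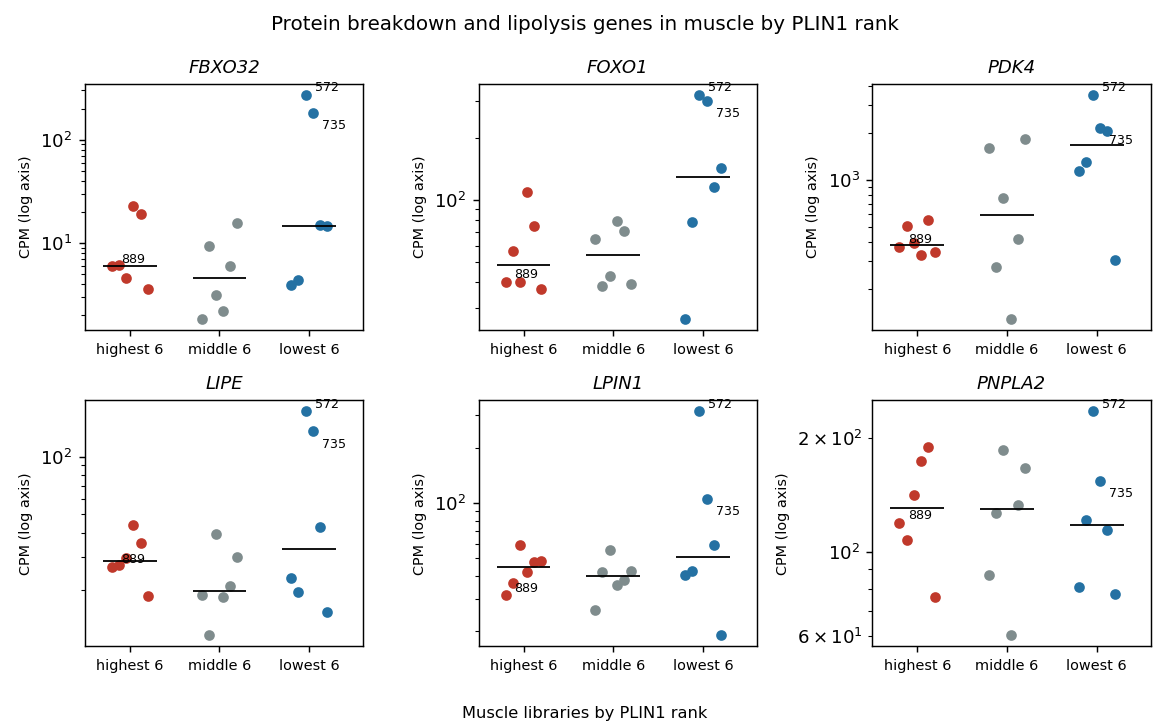
TMM-normalised CPM (log axis) of 6 genes of protein breakdown, fuel choice and lipolysis in muscle by PLIN1 set; points are libraries and bars are medians, with pigs Sample_889, Sample_572 and Sample_735 marked. FBXO32, LIPE and LPIN1 are highest in pigs Sample_572 and Sample_735, while for PDK4 5 of the lowest 6 lie above all of the highest 6.

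Genes with higher values beside high PLIN1 were mostly genes with more RNA in backfat than in muscle. That tissue difference was taken from the middle 6 pigs, in neither set, where edgeR called 5258 of 13947 genes higher in backfat (37.7%) and 4720 higher in muscle (33.8%). Of 766 genes with higher values at an unadjusted p under 0.05, 78.7% were called higher in backfat, beside 32.2% of all genes tested in muscle. Of 763 genes with lower values, 11.8% were called higher in backfat. Another 61.2% of them were called higher in muscle, beside 39.6% of all genes. With library totals in place of TMM factors the shares higher in backfat shift to 94.4% and 72.7%, beside 76.7% of all genes. The share of the lower genes called higher in muscle was then 9.4%, beside 10.7% of all genes, so their lean to muscle depends on the TMM factors. The median tissue difference of all genes moves from -0.09 to 1.48. With TMM factors and without pig Sample_889 the shares higher in backfat were 75.9% and 12.1%.

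PLIN1 in the backfat of the same pigs differed between the sets by less than the spread between pigs. It was 707 ± 168 CPM in the pigs of the highest muscle set and 726 ± 142 CPM in those of the lowest (SD, n = 6 each), a log2 difference of -0.05 (exact two-sided permutation test, p = 0.775). CIDEC in backfat stood at 195 ± 97.7 against 215 ± 144 CPM (SD), with an edgeR log2 difference of -0.14. PCK1 stood at 541 ± 287 against 393 ± 205 CPM (SD), with 0.46. Across 14545 genes edgeR called none in backfat (0%), with 458 higher (3.15%) and 393 lower (2.7%) at an unadjusted p under 0.05, and DESeq2 called 1 higher and 5 lower. COL1A2 stood at 14484 ± 11384 against 6934 ± 2157 CPM (SD) there, with a log2 difference of 1.06 ± 0.42 (SE, edgeR adjusted p = 0.806), and the matrix list had a median of 0.33. Muscle RNA was present in backfat libraries, with ACTA1 at means of 3417 and 5735 CPM, and its part in these values was not tested.

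Pig Sample_889 differed from the other muscle libraries in more than fat genes. PLIN1, CIDEC, PCK1, PPARG, CEBPA, TRARG1, FASN and SCD were highest there of all 18 libraries, and so were COL1A2, TNC, FMOD, MRC1 and TOP2A. Other genes picked out after their values were seen were SPP1, osteopontin, at 151 CPM beside 1.59 to 31.5 in the other 17, and LIPG, endothelial lipase, at 51.4 CPM beside 1.24 to 10.0. TNMD and COMP, which are abundant in tendon, stood at 19.1 and 19.8 CPM beside 0 to 8.10 and 0 to 3.94 CPM. In the middle 6 pigs these genes too were higher in backfat than in muscle, by log2 differences of 5.13 and 6.96 (edgeR). As a share of the level in the backfat of the same pig, muscle of pig Sample_889 had 2.19% for PLIN1, 3.41% for CIDEC and 0.819% for PCK1. For COL1A2 the share was 54.8%, for FMOD 115% and for TNC 157%, beside 1.92% to 15.5%, 0.731% to 8.48% and 1.41% to 17.5% in the other 17 pigs. Its backfat was low for these genes. In CPM over library totals, COL1A2 stood at 3466 in backfat of pig Sample_889, beside 4101 to 32045 in the other 17, and at 1901 in its muscle. FMOD stood at 239 CPM in that backfat, beside 499 to 6223, and at 275 CPM in muscle. TNC stood at 20.3 CPM in that backfat, near the low end of the 17.8 to 159 of the others, and at 31.8 CPM in muscle. The part of fat, tendon or other tissue in this library was not tested.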

How the data were processed

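The authors deposited 1 table of expected counts per Ensembl pig gene, not normalised, in steps of 0.5, for 25322 genes and 36 libraries (5 lines naming no gene were left out of sizes and tests). Reads were placed with GSNAP and counted with HTSeq, as far as the submitters' processing notes name tools. Neither version, build nor annotation is given in the sources used here. Per the labels' protocols, a TruSeq RNA kit was used and both ends were sequenced for 100 bases, with no statement on strand, so overlapping genes cannot be told apart. Muscle libraries held 4716541 to 6216459 gene counts. Symbols were found for 11804 gene IDs. No genome was used, so no coordinates or sequences are given.

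Muscle libraries were ranked by PLIN1 in CPM over library totals. Counts were rounded to whole numbers. All 18 libraries, in 3 sets of 6, were fitted with the robust quasi-likelihood test of edgeR 4.0.16 (R 4.3.3, TMM factors, mean of at least 1 CPM over the 18 libraries), and p-values were adjusted by Benjamini-Hochberg at 0.05 over all genes but PLIN1, which chose the sets. An adjusted p there says which genes follow PLIN1, not what a treatment did. The fit was also run on simulated counts with the same spread for every gene and no outlying library. That run cannot show how the fit handles libraries such as that of pig Sample_889. Backfat was fitted in the same way by the muscle rank, and the tissues in the middle 6 pigs. Muscle and backfat with 1 number come from the same pig per the labels' titles; their deviations from the tissue means correlated at 0.0748 to 0.313 over the middle pigs. DESeq2 1.42.0 was an alternative, and exact permutation tests used SciPy 1.17.1.

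Members and the 29 gene lists were chosen with earlier results of these data known, so no list is independent support. Named genes are PLIN1 and CIDEC, the fat identity, synthesis and lipolysis lists, up to 4 genes per list by mean CPM, and the 8 with a symbol most like PLIN1 by Spearman's rho. A rule for up to 12 called genes per direction named none. Genes outside these, TRARG1 and RBP4 included, were picked out after their values were seen. Leaving out pigs Sample_572 and Sample_735, and combinations with pig Sample_889, were chosen after seeing the data.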

Additional observations from a re-analysis of the deposited data

Results flagged for a closer look

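Within each set of 6 muscle libraries, 123 sets of values were examined for 1 library that lies apart from the rest by more than 0.625 of the whole range (Dixon's ratio, genes as log2 of CPM plus 1, PLIN1 left out because it chose the sets), and chance flags about 1 in 20. In all, 11 were flagged. Pig Sample_889 lay above the other 5 of the highest set for PCK1 (ratio 0.7074), CEBPA (0.7291), SCD (0.6358) and ACLY (0.6876). In the same set pig Sample_911 lay below the others for KLF9 (0.7789).

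In the middle set pig Sample_242 lay above the others for PCK1 (0.6423). In the lowest set, pig Sample_659 lay below the others for TNC (0.7966), pig Sample_656 above them for LOX (0.7238) and AEBP1 (0.7128), and pig Sample_731 above them for MCM3 (0.8561). The share of reads in no annotated gene, 34.1%, put pig Sample_572 above the others of the lowest set (0.6401).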

How the results depend on the processing

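Of 879 values of 37 named genes under the alternatives, 844 kept their direction and stayed on the same side of edgeR's threshold, 21 became significant and 14 changed sign. The cause was not tested. Without pig Sample_889, the log2 difference was -0.11 for CEBPA, -0.13 for FASN and -0.25 for SCD with edgeR, and -0.11, -0.12 and -0.24 with DESeq2. Leaving out 1 library gave up to 0.71 for CEBPA, 0.39 for FASN and 1.80 for SCD. Without pigs Sample_572 and Sample_735 it was 0.13 for LPIN1, 0.27 for LIPE and 0.15 for FBXO32, and without pig Sample_889 as well it was 0.22, 0.30 and 0.27, with -0.60 for SCD and 0.10 for NR1H3. The difference in TMM factor became 0.078 without pigs Sample_572 and Sample_735.

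Adjusted calls in muscle (0 higher, 0 lower) were 51 and 6 with DESeq2, 4 and 1 with DESeq2 without pig Sample_889, 194 and 17 with PLIN1 as a covariate (0 and 0 without pig Sample_889), and 1 higher at a mean of at least 5 CPM. Leaving out 1 library gave 0 to 16 higher. Counts higher at an unadjusted p (767) were 406 with library totals, 328 without pigs Sample_889, Sample_572 and Sample_735, 461 with DESeq2 without pig Sample_889, and 502 to 929 with 1 library left out. Counts lower (769) were 488 at 5 CPM, 503 with only the 12 libraries, 286 ranked by CIDEC, 407 ranked by TMM-scaled PLIN1, 424 without pigs Sample_889, Sample_572 and Sample_735, 320 with the covariate without pig Sample_889, 403 with DESeq2 without pig Sample_889, and 426 to 1006 with 1 library left out.

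In backfat, DESeq2 called 1 higher and 5 lower, and the covariate fit called 1 higher, with 890 higher and 665 lower at an unadjusted p. Leaving out 1 library gave 317 to 645 higher and 289 to 469 lower. For the tissues, library totals gave 11148 higher in backfat and 1273 in muscle. With the pig as a replicate block there were 5555 and 4803 calls, within 1.5 times of the counts without it. The comparisons within a tissue are between pigs and have no pairs. Depth limits PLIN1, with 5 to 29 counts in all muscle libraries but pig Sample_889.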

Other observations

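Transcription factors of fat cell formation did not share a direction. Of 11 tested, 7 had positive values in the set with more PLIN1. At an unadjusted p under 0.05, 3 were positive and 2 negative, beside 6.41% and 6.43% of all genes. Without pig Sample_889 none was at that level. EBF2, a factor of fat cell precursors, stood at a median of 1.88 CPM in the highest 6 and 1.07 CPM in the lowest 6, a log2 difference of 0.66 ± 0.30 (SE, edgeR adjusted p = 0.362). ZNF423, which commits precursors to the fat cell lineage, had medians of 13.0 and 10.6 CPM and a difference of 0.36 ± 0.14 (SE, adjusted p = 0.316). KLF9, a factor induced by glucocorticoids, had medians of 121 and 170 CPM and a difference of -0.57 ± 0.25 (SE, adjusted p = 0.358). NR1H3, the sterol sensor LXR alpha, had medians of 27.6 and 31.7 CPM and a difference of -0.72 ± 0.32 (SE, adjusted p = 0.363), which was -0.04 without pigs Sample_572 and Sample_735.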
